A study of Mus musculus with 15 samples.

Results

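The TGF-β genes described here are 10 rows of the deposited table, chosen by name out of 42454 rows: the ligand genes Tgfb1 and Tgfb3, the integrin subunit gene Itgav, the receptor genes Tgfbr1 and Tgfbr2, the signal transducer gene Smad3, the inhibitory Smad genes Smad6 and Smad7, the feedback gene Pmepa1 and the target gene Id3. Earlier results of these data were known when the 10 were chosen. All 10 were found, and all 10 had a mean of 100 normalized counts or more over the 15 libraries, the minimum for testing. Without the recruited libraries Tgfb3 would have been below this minimum, so its values there are not independent of the filter.

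TGF-β is secreted in a latent form, in which its propeptide holds the active dimer and is tethered to the cell surface or the matrix. Integrins that contain the αv chain, thrombospondin and membrane proteases can release it. The active ligand binds the type II receptor, which phosphorylates the type I receptor, and this phosphorylates Smad2 and Smad3, which enter the nucleus with Smad4. Smad6, Smad7 and Pmepa1 are induced by the pathway or its BMP branch and restrain it. In macrophages the pathway is known for sustaining tissue-resident programmes, those of microglia among them.

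The libraries were made from macrophages of mouse ear skin, sorted as CD11b-positive, CD64-positive and lineage-negative cells. All mice carried creERT2 on 1 Cx3cr1 allele and gfp on the other, as the genotype is written in the protocol, with a Cre-dependent tdTomato at R26. Tamoxifen was given to all of them, the left ear was wounded with a punch 3 weeks later, and the skin of both ears was collected 10 days after that. The 5 groups of 3 libraries were interstitial macrophages of the unpunched right ear (IM) and of the punched left ear (injIM), gated as GFP-negative and Tomato-negative, resident nerve-associated macrophages of the unpunched (sNAM) and punched ear (injNAM), gated as positive for both reporters, and recruited nerve-associated macrophages of the punched ear (recNAM), gated as GFP-positive and Tomato-negative. Groups follow the sample titles. The reporter field of the labels differs from the sorting gates for injIM and sNAM, and its genotype field names Cxcr1. The samples came from 3 mice, which mouse gave which library is not stated, and ages are not given. The p-values treat the 15 libraries as independent and measure only the spread between them.

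Levels are normalized counts, for which the authors had scaled each library's reads by 1 factor, and group levels are mean ± SD (n = 3 libraries). The recovered depth was 16.9 to 23.8 M reads (M, 10 to the power of 6) in all libraries except sNAM replicates 2 and 3, which had 5.64 M and 9.09 M. The 6 resident nerve-associated libraries stood apart in complexity: 3.89 to 25.8% of the tested genes had no read in them, against 0.139 to 0.751% in the other 9. Differences were therefore tested with limma with 1 weight per group, on the log2(normalized count + 100) scale, which understates the change of low genes. Calls were made at a Benjamini-Hochberg adjusted p below 0.05 over 8656 genes. Summed over 8 pan-macrophage markers, the libraries held 191354 to 334683 normalized counts, and every marker had reads in every group. T cell markers were above the other groups in 5 of the 6 resident libraries: the 4 markers summed to 2416, 55.3 and 4801 in sNAM replicates 1, 2 and 3 and to between 200 and 5393 in injNAM (replicate 2 lowest), against 19.4 to 108 in the other groups, and Trac was at 0 in every group except injNAM. The 6 fibroblast markers summed to 4518 to 7613 in IM, 4544 to 17417 in injIM, 724 to 4388 in recNAM and at most 862 in the resident libraries.

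**Figure D1:**
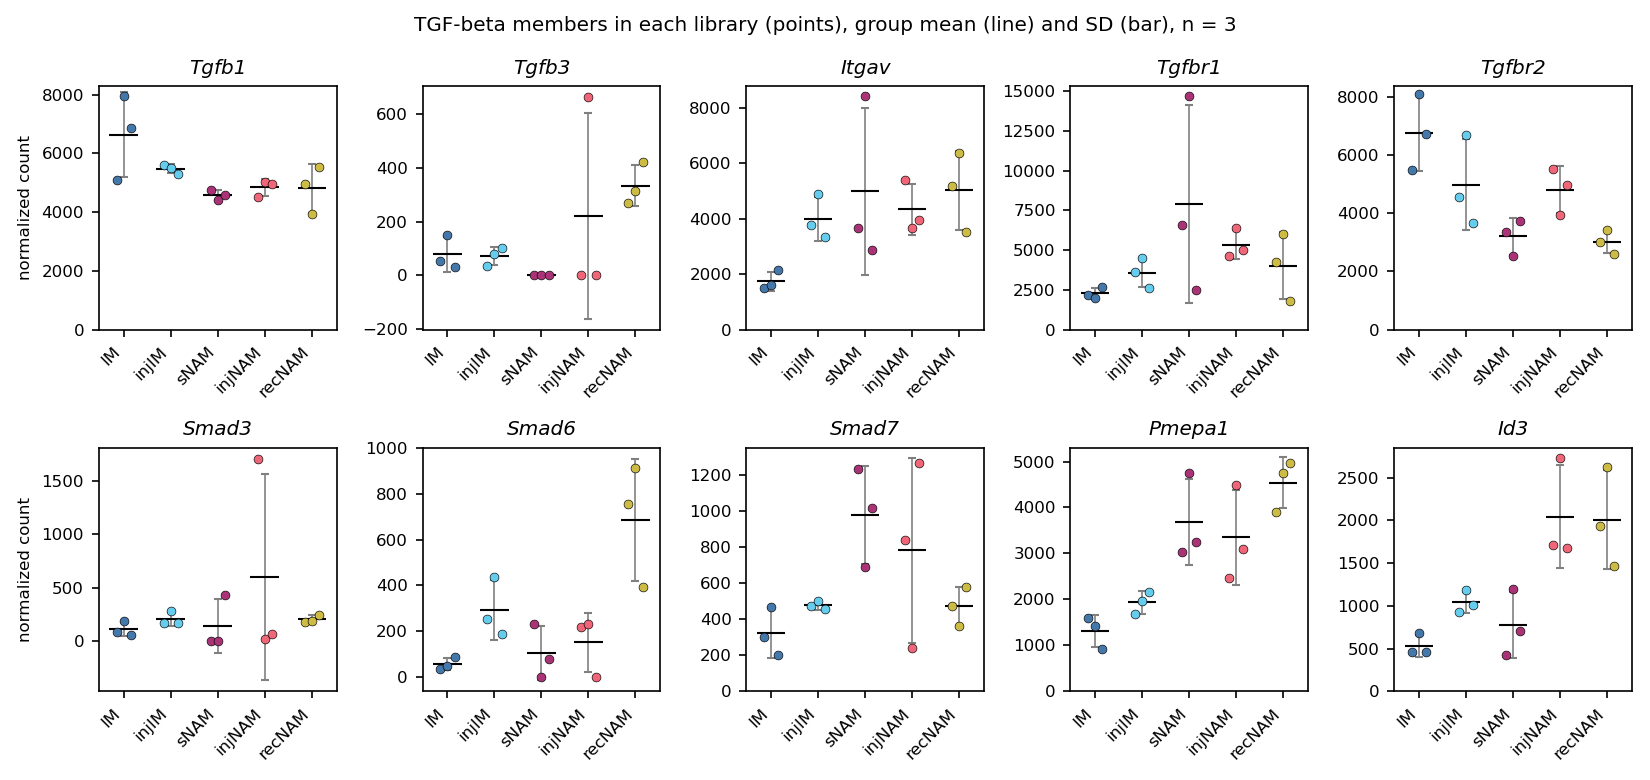
Normalized count (vertical axis of each panel) of the 10 genes in the 15 libraries, with 1 point per library, a line at the group mean and a bar of 1 SD (n = 3 per group; the horizontal offset within a group has no meaning). The 3 recNAM points of Pmepa1 lie between 3911 and 4964, above all IM and injIM points, and Tgfb3 has reads in 1 of the 6 resident libraries.

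Interstitial macrophages of the punched ear were compared with those of the unpunched ear to ask how the pathway's genes differed after injury. The gene for the integrin αv chain, the inhibitory Smad6 gene, the feedback gene Pmepa1 and the target Id3 were all higher in injIM, by 1.47 to 5.22 times. The genes for both ligands, both receptors, Smad3 and Smad7 were not called. In all, 4 of the 10 genes were called higher and none lower. Of all tested genes 8.18% were called, 4.15% higher and 4.03% lower. The median log2 difference of the 10 was 0.55, against 0.03 over all tested genes and -0.13 over 40 other tested pathway genes described below. As the 10 were chosen with earlier results of these data known, these counts and medians are not a test of the pathway.

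Itgav, whose product pairs with several β chains and binds the RGD sequence of the latent propeptide (chr2:83722303-83806917, mm10), measured 1516, 1599 and 2148 in IM replicates 1, 2 and 3 and 3794, 4881 and 3334 in injIM. All injIM libraries lay above all IM libraries. The group means were 1754 ± 343 and 4003 ± 795, a ratio of 2.28 (log2 difference 1.14, SE 0.17, limma adjusted p = 0.000204). In the nerve-associated groups Itgav measured 3658, 8439 and 2868 in sNAM, 5398, 3684 and 3944 in injNAM and 5166, 6377 and 3539 in recNAM. IM was the lowest group and overlapped with none of the others, and the other 4 groups overlapped with their neighbours in the order of means. How many of all tested genes had IM below every other group was not computed.

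Smad6, which blocks Smad activation mainly downstream of BMP receptors (chr9:63953076-64022085), measured 35.5, 46.0 and 86.4 in IM and 254, 437 and 186 in injIM. The groups did not overlap and their means differed by 5.22 times (log2 difference 1.29, SE 0.25, limma adjusted p = 0.00208). The gene reached 757, 914 and 393 in recNAM, its highest group, whose lowest library lay below the highest of injIM. It was uneven in the resident libraries, at 232, 0 and 77.7 in sNAM and 217, 232 and 0.856 in injNAM.

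Pmepa1, a membrane protein that binds Smad2 and Smad3 and keeps them from the receptor (chr2:173224458-173276731), measured 1588, 1426 and 927 in IM and 1679, 1957 and 2162 in injIM. The groups did not overlap, but the gap between them was small (1314 ± 345 against 1932 ± 242, log2 difference 0.55, SE 0.16, limma adjusted p = 0.0366). The call was lost when IM replicate 3 (limma adjusted p = 0.247) or injIM replicate 1 (0.0636), 2 (0.113) or 3 (0.0766) was left out.

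Id3, a helix-loop-helix protein that blocks DNA binding of E proteins and is a classic target of BMP and TGF-β signals (chr4:136143822-136145392), measured 460, 681 and 457 in IM and 933, 1180 and 1008 in injIM. All injIM libraries lay above all IM libraries (533 ± 128 against 1040 ± 127, log2 difference 0.86, SE 0.17, limma adjusted p = 0.00347). The calls of Itgav, Smad6 and Id3 held without any single library. Other genes passed when 1 library was left out: Tgfbr1 higher without injIM replicate 3 (limma adjusted p = 0.0311) or recNAM replicate 3 (0.0411), Tgfbr2 lower without injIM replicate 2 (0.0109) and Smad7 higher without IM replicate 2 (0.0236). Of the tested genes, 13.5% had all injIM libraries above all IM libraries.

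The 4 calls depended on how the spread was modelled, as did the share of all genes called. With 1 spread shared by all 15 libraries, limma called 18 genes and 0 of the 10. On the recovered reads edgeR called 4 genes and DESeq2 64, in both cases 0 of the 10, and DESeq2 gave no adjusted p for Smad6. Without the filter on low values limma called 1 of the 10, Itgav, and Smad6 (adjusted p = 0.0723), Id3 (0.0572) and Pmepa1 (0.228) were not called. An unadjusted p under 0.05 in limma was found for 7 of the 10 and for 1732 of the 8656 tested genes. In a fit on the IM, injIM and recNAM libraries alone, chosen after the data were examined, limma called Itgav, Smad6 and Id3 (adjusted p = 0.00295, 0.00852 and 0.0146) and edgeR called Itgav and Smad6 (adjusted p = 0.0167 and 0.0149). The fibroblast marker sum was highest in injIM replicate 3, at 17417. Of the injIM libraries this one had the lowest values of Itgav and Smad6 and the highest of Pmepa1 and Tgfb3, and the part of fibroblasts in these values was not tested.

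The promoters of Smad6 and Id3 are shown because both genes were called higher in injIM and are known targets of Smads. The motifs, chosen with these sequences in view, were searched on both strands in RefSeq promoter windows (GRCm38.p6, 250 bases before to 50 after each start), which were matched for 7 of the 10 genes: GTCTAGAC, the palindromic Smad binding element, CAGAC, a shorter Smad element, and GGCGCC, a GC-rich Smad element. The palindrome cannot hold CAGAC, although both share the letters AGAC. In capitals are the matched letters, in the 30 bases around the start that the Smad6 window uses (chr9:64022045-64022074, minus strand) and the 250 bases before the Id3 start (chr4:136143572-136143821, plus strand).
Smad6: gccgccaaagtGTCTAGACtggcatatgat
Id3: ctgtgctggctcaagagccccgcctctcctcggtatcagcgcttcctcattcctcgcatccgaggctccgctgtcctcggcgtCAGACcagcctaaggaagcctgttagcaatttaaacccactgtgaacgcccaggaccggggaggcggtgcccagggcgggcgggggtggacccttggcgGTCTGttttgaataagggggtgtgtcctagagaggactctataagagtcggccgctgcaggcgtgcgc
Smad6 was the 1 gene of the 7 with the palindrome, which 0.213% of the 32851 promoter windows hold. The palindrome begins at position -4 from the start that the Smad6 window (chr9:64022010-64022309) uses. By the gene coordinates given above (chr9:63953076-64022085, minus strand), that start and the printed Smad6 bases lie inside the gene. Id3 had the shorter element at positions -167 and -68, the second on the reverse strand. The shorter element is common, with 49.6% of windows holding it, and 3 of the 7 genes, Id3, Tgfbr1 and Tgfbr2, had it. GGCGCC was found in 1 of the 7, Tgfbr1, and in 11.9% of windows. Tgfbr1 had a window at the gene's start (chr4:47352972-47353271), which held GGCGCC, and another inside the gene (chr4:47385966-47386265), which held CAGAC. The percentages are per window, while the gene counts take any window of a gene. The Itgav window held none of the 3 motifs. These matches describe letters, and no binding was measured.

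Other genes of the pathway were read from a list of 65, which holds the 10 and 55 others, of which 40 were tested. Of these 40, 5 were higher and 2 lower in injIM, where 4.15% of all tested genes were called higher and 4.03% lower. The median log2 difference of the 40 was -0.13. Calls of pathway genes, here and in the next paragraph, are read from the weighted limma fit alone. Of the 10 tested genes of latency and activation, the role on the list with the most calls, 4 were higher, none was lower and 6 were not called. The 4 include Itgav, which was already counted above. Itgb5, the integrin β5 chain that pairs with αv, rose from 809 ± 192 to 2507 ± 343 (log2 difference 1.53, limma adjusted p = 6.33e-06). Mmp14, a membrane-bound matrix protease, rose from 2812 ± 1552 to 8399 ± 1573 (log2 difference 1.65, limma adjusted p = 0.000101). Thbs1, thrombospondin, rose from 23429 ± 24454 to 87346 ± 7666 (log2 difference 2.41, limma adjusted p = 0.00814), with IM replicate 2 at 51575 and the other IM libraries at 11320 and 7392. Nrros, which tethers latent TGF-β on macrophages and microglia and is named after its values were seen, was not called (9144 ± 464 in IM, 7535 ± 422 in injIM, limma adjusted p = 0.0962).

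Elsewhere on the list, the ubiquitin ligase gene Nedd4l, which targets activated Smads, rose from 600.2 ± 144 to 1264 ± 179 (log2 difference 0.97, limma adjusted p = 0.00489). None of the 8 tested receptor genes and none of the 5 receptor-regulated and common Smads was called. Among 8 tested target genes 1 rose, Bhlhe40, a transcriptional repressor (2689 ± 395 to 7283 ± 632, limma adjusted p = 1.95e-06). The AP-1 gene Junb (31095 ± 3247 to 20131 ± 2294) and the stress gene Gadd45b (7376 ± 1812 to 4791 ± 1011) fell (limma adjusted p = 0.00167 and 0.0377). Markers of other cells moved with this comparison. The 6 mast cell markers summed to 6962 to 9360 in IM and 3360 to 3595 in injIM, the 5 dendritic cell markers to 4386 to 10954 and 1596 to 4374, and the 4 neutrophil markers to 7.78 to 23.65 and 58.46 to 72.84. None of these sums overlapped between the groups, and their part in the differences was not tested. In bulk libraries fewer cells of a type and less RNA per cell cannot be told apart.

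**Figure D2:**
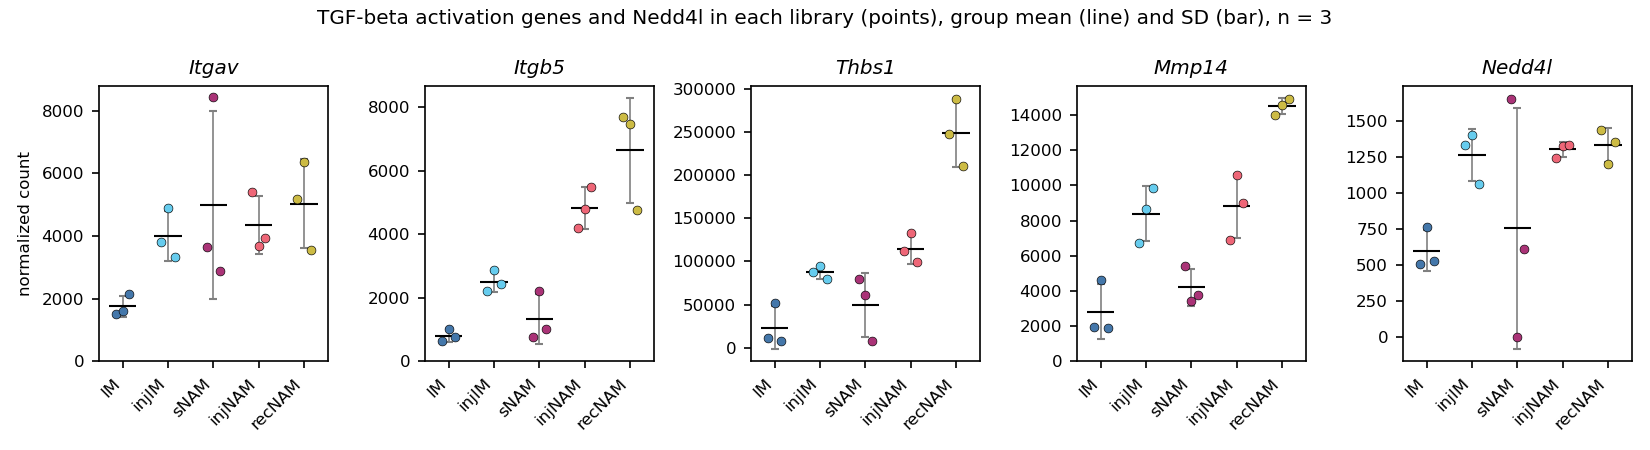
Normalized count of Itgav, 3 other activation genes and the ubiquitin ligase gene Nedd4l in the 15 libraries (1 point per library, line at the group mean, bar of 1 SD, n = 3). Thbs1 reaches 210608 to 288822 in recNAM, and Mmp14 14000 to 14915.

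Recruited nerve-associated macrophages were compared with interstitial macrophages of the same punched ear. Tgfb3, Pmepa1 and Id3 were higher in recNAM, by 1.93 to 4.67 times, and none of the 10 was called lower. This is 3 of 10 genes, of which Tgfb3 reached the minimum for testing through the recNAM libraries, so its call is not counted as support. Of all tested genes 7.53% were called, 3.19% higher and 4.34% lower. The comparison shares the injIM libraries with the one above. With 1 spread shared by all libraries and with edgeR, 0 of the 10 were called, and 5 had an unadjusted p under 0.05 in limma, as had 1668 of the tested genes. Marker sums that did not overlap were lower in recNAM for fibroblasts (724 to 4388 against 4544 to 17417) and mast cells (1729 to 3032 against 3360 to 3595). They were higher for dendritic cells (5262 to 8294 against 1596 to 4374) and Schwann cells (188 to 199.3 against 106.8 to 171.6). Their part in these differences was not tested.

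Tgfb3, the ligand gene also expressed by fibroblasts and other stromal cells (chr12:86056743-86079041), measured 270, 312 and 420 in recNAM against 33.7, 80.1 and 101 in injIM, with no overlap (log2 difference 1.34, SE 0.32, limma adjusted p = 0.012). In IM it measured 51.5, 151 and 29.4. In the resident libraries it was at 0 except for injNAM replicate 2, at 664. The 3 libraries of sNAM had no read, where 3 reads would be 2.89, 8.73 and 5.55 normalized counts, for counting error only. Within recNAM, replicate 1 was lowest and replicate 3 highest in both Tgfb3 and the fibroblast marker sum. The 3 sNAM libraries without a Tgfb3 read had fibroblast sums of 112.7 to 861.7. Other libraries went the other way: injNAM replicate 2, at 664, had a fibroblast sum of 5.883, and IM replicate 1, at 51.5, one of 6790. As a group, recNAM had more Tgfb3 than injIM and a lower fibroblast sum. The part of fibroblasts in Tgfb3 was not tested. The Tgfb3 call was lost without the filter on low values (limma adjusted p = 0.16), with 1 shared spread (0.888) and with edgeR on all libraries (adjusted p = 1.0). It was also lost without injIM replicate 1 (limma adjusted p = 0.0906) or recNAM replicate 1 (0.0693), and with a pseudocount of 10 (0.0576).

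Pmepa1 measured 3911, 4748 and 4964 in recNAM, above every injIM library, and had its highest group mean there (4541 ± 556 against 1932 ± 242, log2 difference 1.19, SE 0.20, limma adjusted p = 0.000596). This call held without any single library, with DESeq2 (adjusted p = 0.00312) and in both fits limited to the IM, injIM and recNAM libraries (limma adjusted p = 0.00728 and edgeR adjusted p = 0.00397). It was lost with 1 shared spread (limma adjusted p = 0.0863) and with edgeR on all libraries (adjusted p = 0.115). Id3 measured 1940, 2621 and 1464 in recNAM, and all 3 lay above injIM (2008 ± 582 against 1040 ± 127, log2 difference 0.86, SE 0.21, limma adjusted p = 0.0166). That call was lost without injIM replicate 1, recNAM replicate 1 or recNAM replicate 2 (limma adjusted p = 0.0972, 0.115 and 0.121). Of all tested genes, 11.4% had every recNAM library above every injIM library.

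Smad6 measured 688 ± 267 in recNAM and 292 ± 130 in injIM (log2 difference 0.99, 95% interval 0.36 to 1.63, limma adjusted p = 0.0516). It passed without injIM replicate 2 (limma adjusted p = 0.02), injNAM replicate 3 (0.0469) or recNAM replicate 3 (0.0098). Tgfbr2, the type II receptor that binds the ligand first (chr9:116087695-116175363), measured 3024, 3408 and 2611 in recNAM and 4566, 6698 and 3663 in injIM (log2 difference -0.67, 95% interval -1.10 to -0.23, limma adjusted p = 0.0572). The groups did not overlap, as for 12.5% of tested genes in that direction, and the gene was called lower without IM replicate 1 (limma adjusted p = 0.0456), IM replicate 2 (0.0435) or injIM replicate 3 (0.00632). For Smad3, Smad7 and Tgfbr1 the differences were 0.00, -0.03 and 0.04, with 95% intervals of -0.73 to 0.73, -0.58 to 0.52 and -0.56 to 0.64.

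Of all tested genes 3.19% were higher in recNAM and 4.34% lower. Of the other 40 tested pathway genes 1 was higher and 4 were lower, read from the weighted limma fit alone. The higher gene was Itgb5 (6640 ± 1642 against 2507 ± 343, log2 difference 1.35, limma adjusted p = 0.00026). The lower genes were Furin, the convertase that cleaves the propeptide (8959 ± 1182 against 15026 ± 2825, limma adjusted p = 0.00579), and Smad1, a transducer of BMP signals (476 ± 164 against 925 ± 24.0, 0.00964). The matrix gene Ccn2 fell from 781 ± 190 to 57.3 ± 19.9 (limma adjusted p = 0.000241) and Bhlhe40 from 7283 ± 632 to 4927 ± 1078 (0.0371). Ccn2 is abundant in fibroblasts and endothelium, and the fibroblast marker sum was lower in recNAM too; its part in this was not tested.

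**Figure D3:**
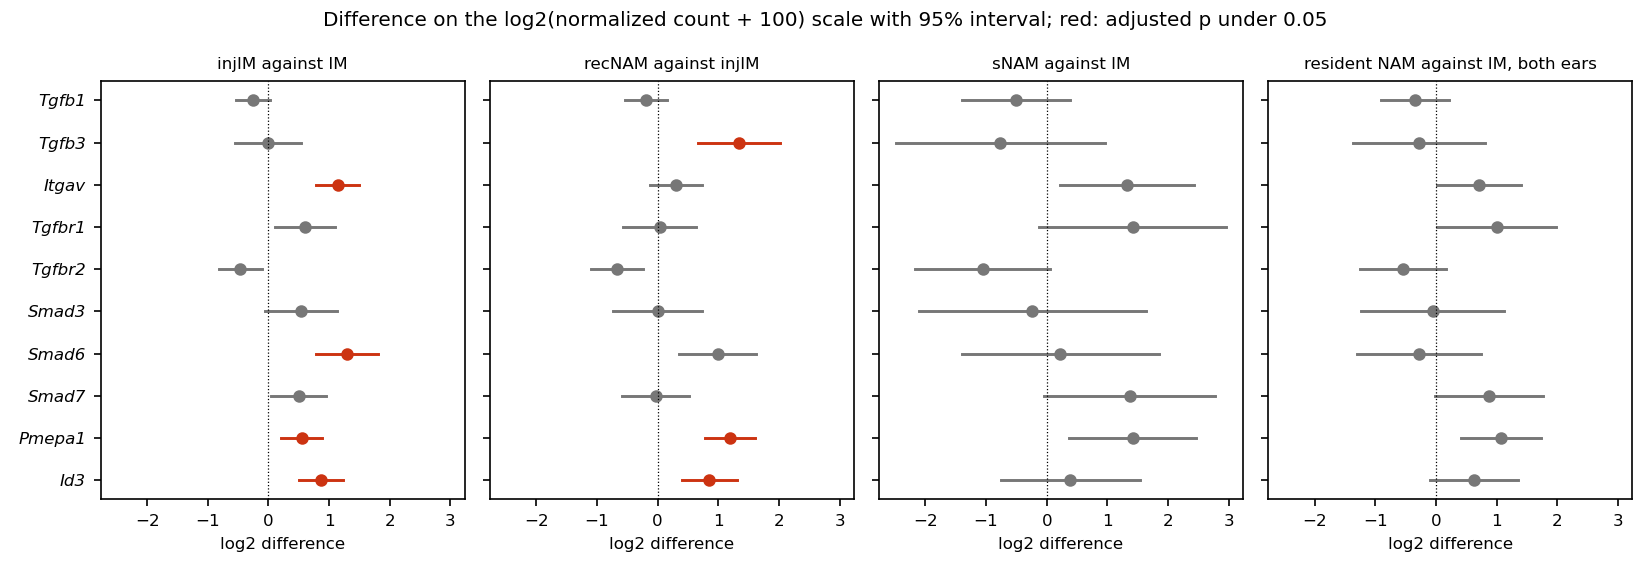
Log2 difference of the 10 genes (horizontal axis, log2(normalized count + 100) scale) in 4 comparisons, with points at the estimate, bars of the 95% interval and called genes in red. The intervals are widest for sNAM against IM, where Pmepa1 has 0.38 to 2.47, and called genes appear in the panels of injIM against IM and recNAM against injIM.

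Resident nerve-associated macrophages of the unpunched ear were compared with interstitial macrophages of the same ear. None of the 10 genes was called in limma, where 1.05% of all tested genes were called, 0.543% higher and 0.508% lower. An unadjusted p under 0.05 was found for 2, Pmepa1 and Itgav, and for 1297 of the tested genes. On the recovered reads, edgeR called 3 of the 10 (Pmepa1 and Itgav higher, Tgfbr2 lower) and 332 genes in all, and DESeq2 called 7 and 922. The 7 include Tgfb3, which had no read in sNAM and a DESeq2 log2 difference of -22.6. Dendritic cell markers summed to 25451 to 48488 in sNAM against 4386 to 10954 in IM, pan-macrophage markers to 191354 to 236686 against 295608 to 334683, and fibroblast markers to 112.7 to 861.7 against 4518 to 7613. None of these sums overlapped, and their part in the differences was not tested. By libraries alone, 6 of the 10 had groups that did not overlap: Pmepa1, Itgav and Smad7 were above IM in every sNAM library, as 9.57% of tested genes were, and Tgfb1, Tgfb3 and Tgfbr2 below it, as 18.4% were. The median log2 difference of all tested genes was -0.26.

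Pmepa1 measured 3035, 4754 and 3242 in sNAM and 2466, 4479 and 3101 in injNAM, so every resident library lay above every interstitial library of either ear. The share of all tested genes with this pattern over both ears was not computed. The log2 difference of sNAM from IM was 1.42 (SE 0.50, 95% interval 0.38 to 2.47, limma adjusted p = 0.178). Averaged over both ears, the resident groups differed from the interstitial groups by 1.07 (95% interval 0.42 to 1.73, limma adjusted p = 0.0532, where 5.05% of genes were called, 1.72% higher and 3.33% lower). In that comparison 0 of the 10 was called in limma, and 3 of the 10 and 1782 of the tested genes had an unadjusted p under 0.05. With edgeR 1 of the 10, Pmepa1 (edgeR adjusted p = 0.0043), and 504 genes in all were called, and with DESeq2 6 and 1056. The 6 include Tgfb3, which had no read in sNAM and reads in 1 injNAM library. Limma also called Pmepa1 without IM replicate 1 (adjusted p = 0.0306), IM replicate 3 (0.0339) or injIM replicate 3 (0.0428).

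Smad7, which recruits ubiquitin ligases to the type I receptor and lies on chromosome 18, measured 1228, 687 and 1016 in sNAM and 300, 469 and 198 in IM (log2 difference 1.37, 95% interval -0.05 to 2.78, limma adjusted p = 0.355). DESeq2 called Smad7 higher in sNAM than in IM (log2 difference 1.609, DESeq2 adjusted p = 0.0406). It measured 836, 241 and 1265 in injNAM, and the means of injIM and recNAM were 476 ± 23.9 and 471 ± 109. Within each resident group its lowest library was replicate 2, which also had the lowest T cell marker sum of its group. The part of T cells in Smad7 was not tested.

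Neither receptor gene was called in the weighted limma fit of sNAM against IM, and their means lay on opposite sides of IM. Tgfbr1, the type I receptor kinase (chr4:47353222-47414926), measured 2172, 2021 and 2675 in IM, 6560, 14671 and 2479 in sNAM and 4640, 6401 and 4995 in injNAM. The sNAM libraries overlapped with IM through replicate 3 (log2 difference 1.41, 95% interval -0.13 to 2.96, limma adjusted p = 0.386). Tgfbr2 measured 5476, 8085 and 6723 in IM and 3338, 2521 and 3737 in sNAM (log2 difference -1.06, 95% interval -2.18 to 0.06, limma adjusted p = 0.371). Tgfbr2 was called lower with edgeR (adjusted p = 0.0238), with 1 shared spread in limma (0.0187) and with DESeq2 (0.00121), and Tgfbr1 higher with DESeq2 (0.00868).

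Per length, as RPKM (recovered reads per kilobase of exon and per M reads), Tgfbr2 stood above Tgfbr1 in every IM library. The ratio of Tgfbr1 to Tgfbr2, picked after its values were seen, was 0.497, 0.313 and 0.499 in IM. It was 0.993, 0.839 and 0.901 in injIM, 2.46, 7.29 and 0.831 in sNAM, 1.06, 2.05 and 1.26 in injNAM, and 1.78, 2.21 and 0.857 in recNAM. All 12 libraries outside IM had a higher ratio than the IM libraries. For this ratio 3 libraries against 3 cannot give a two-sided exact permutation p under 0.1, so none was computed.

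**Figure D4:**
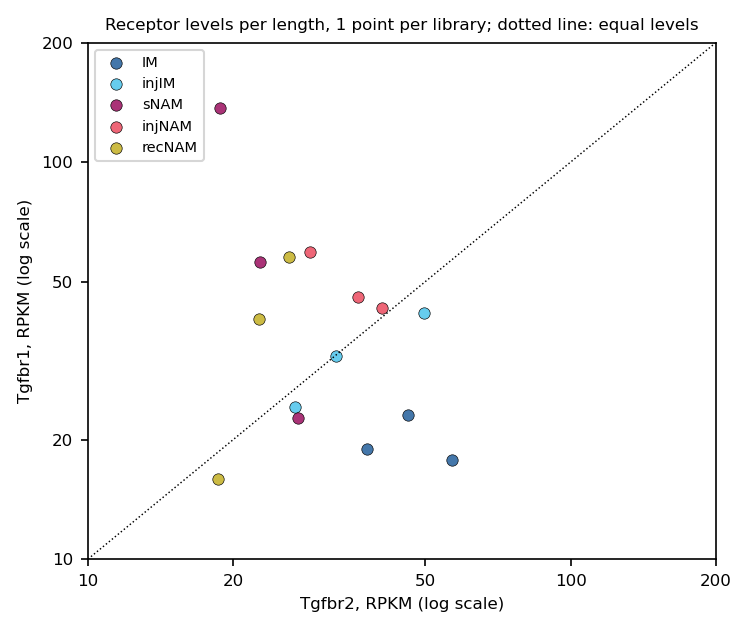
Tgfbr1 against Tgfbr2 in RPKM on log axes, 1 point per library, coloured by group, with a dotted line of equal levels. The 3 IM points lie below the line, at ratios of 0.313 to 0.499, and the 3 injNAM points above it, at 1.06 to 2.05.

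Tgfb1, the main macrophage ligand gene of the family (chr7:25687002-25705077), was the most abundant of the 10 per length, at 74.8 ± 16.8 RPKM in IM, 64.9 ± 1.55 in injIM, 53.3 ± 0.843 in sNAM, 57.8 ± 3.18 in injNAM and 57.7 ± 7.97 in recNAM, except that Tgfbr1 (71.8 ± 58.8) was above it in sNAM and Id3 (68.7 ± 20.5 and 68.6 ± 22.2) in injNAM and recNAM. Tgfb3 averaged 1.31 RPKM in IM and 5.97 in recNAM. In normalized counts Tgfb1 measured 5088, 7951 and 6878 in IM, 5614, 5514 and 5309 in injIM and 4752, 4399 and 4592 in sNAM. It measured 4524, 5038 and 4966 in injNAM and 4957, 3925 and 5554 in recNAM. No comparison called it in limma, and its difference of sNAM from IM was -0.50 (95% interval -1.39 to 0.38, limma adjusted p = 0.627). DESeq2 called Tgfb1 lower in sNAM than in IM (log2 difference -0.527, DESeq2 adjusted p = 0.0432).

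Smad3, the TGF-β-activated transducer (chr9:63646766-63757994), was low and uneven. It measured 91.2, 188 and 63.1 in IM, 168, 287 and 167 in injIM and 177, 188 and 248 in recNAM. In the resident libraries it ranged from 0 to 1707, at 0, 2.91 and 437 in sNAM and 1707, 20.6 and 66.8 in injNAM. It was not called in any comparison, and for sNAM against IM the interval ran from -2.11 to 1.64. Its partners Smad2 (1634 ± 134 in IM and 1729 ± 461 in sNAM) and Smad4 (2606 ± 19.5 and 2410 ± 1873) were not called either.

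Within the nerve-associated groups, no gene of the 10 was called for injNAM against sNAM or for recNAM against injNAM, where limma called 0 of all tested genes and 586 and 619 had an unadjusted p under 0.05. For injNAM against sNAM, 0 of the 10 had an unadjusted p under 0.05, edgeR called 0 and DESeq2 called 2, Tgfb3 and Id3. Of these libraries only injNAM replicate 2 had reads of Tgfb3, and its DESeq2 log2 difference was 24.1. Id3 measured 426, 1196 and 699 in sNAM and 1710, 2737 and 1676 in injNAM, and the groups did not overlap, as for 7.35% of tested genes in that direction and 4.69% in the other (log2 difference 1.35, 95% interval -0.04 to 2.75, limma adjusted p = 0.756). For recNAM against injNAM, 1 of the 10 had an unadjusted p under 0.05, Smad6 (log2 difference 1.78, 95% interval 0.48 to 3.07, limma adjusted p = 0.471), while edgeR and DESeq2 called 0. Smad6 was above injNAM in every recNAM library, as 7.29% of genes were, and Tgfbr2 below it, as 6.4% were. For injNAM against injIM, 0.485% of all genes were called, 0.243% higher and 0.243% lower, and 0 of the 10, with 0 at an unadjusted p under 0.05 and 0 by edgeR and DESeq2. The difference was 0.88 (95% interval -0.001 to 1.76) for Id3 and 0.73 (-0.07 to 1.53) for Pmepa1. Id3, Pmepa1 and Tgfbr1 were above injIM in every injNAM library, as 8.92% of genes were, and Tgfb1 below it, as 12% were.

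Whether the difference between ears was unlike in resident and interstitial macrophages was tested as an interaction. None of the 10 was called in limma, where 0 genes were called in all and 444 had an unadjusted p under 0.05. None of the 10 reached an unadjusted p under 0.05, edgeR called 0 and DESeq2 called 1, Tgfb3, a gene at 0 in 5 of the 6 resident libraries. For Itgav, higher in injIM than in IM, the interaction was -1.20 (95% interval -2.60 to 0.19, limma adjusted p = 0.956).

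For the 5 genes called in a comparison, the tested genes most alike in pattern were found by Pearson correlation over the 15 libraries. Depth and complexity differed between groups and also within sNAM (5.64 to 18.6 M reads), and their part in the correlations was not tested. Pmepa1 was nearest to Tmem119 (r = 0.92), a microglial surface gene, then Gngt2 (0.92) and Cmip (0.91). Id3 was nearest to Itgb5 (0.96), then Nrg1 (0.92) and Trp53inp2 (0.92). Smad6 was nearest to Lpar1 (0.89), Olfml3 (0.86) and Spint1 (0.82), Itgav to Orai2 (0.88), Ptprc (0.87) and Mefv (0.86), and Tgfb3 to Homez (0.92), 1600014C10Rik (0.91) and Sass6 (0.90). Among the 10 themselves the highest correlation was between Itgav and Tgfbr1 (0.78) and the lowest between Tgfbr2 and Pmepa1 (-0.83).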

How the data were processed

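Gene expression was measured in 15 libraries of 5 groups. Per the labels' protocols, cDNA was made from 250 pg of RNA with a SMARTer kit, amplified over 13 cycles and made into libraries with Nextera XT. STAR 2.7.2b with mm10, DESeq2 1.24.0, R 3.6.1, bcl2fastq 2.18 and cutadapt are named per the submitters' processing notes. Which counter, annotation and strand setting were used is not given in the sources used here. Each deposited value is a signal, a gene's reads after the authors scaled the library by 1 factor. Dividing by the value of 1 read returned whole numbers (tolerance 0.01) for 100% of values above 0. PCR reads without molecular identifiers are not independent molecules.

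The test was limma 3.58.1 (trend, robust) on log2(value + 100) for the 8656 genes with a mean of 100 or more, with 1 mean and 1 array weight for each group (3.43 for IM, 3.21 for injIM, 0.175 for sNAM, 0.311 for injNAM and 1.67 for recNAM), Benjamini-Hochberg adjustment within each of 8 comparisons and a threshold of 0.05. Alternatives used edgeR 4.0.16, DESeq2 1.42.0 and other limma settings. The fit was also run on simulated data with a smooth spread per group. That simulation did not model genes dropping to 0 in single resident libraries, so it is not given as support. Exon lengths are the union of GENCODE M21 exons, and gene coordinates are RefSeq's on GRCm38.p6, the assembly mm10 names. Earlier results of these data were known when the 10 genes, the lists and the settings of the fit were chosen. Named are the 10, pathway genes called in a comparison or among the 2 highest of their role, and the 3 genes most alike to each called member.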

Additional observations from a re-analysis of the deposited data

How the results depend on the processing

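Of the 10 genes, 0 were called in sNAM against IM, but 3 with 1 pooled spread, 3 with edgeR and 7 with DESeq2 on the recovered reads. In injIM against IM, where 4 were called, 1 was called without a filter, 0 with 1 pooled spread, 0 with edgeR, 0 with DESeq2 2 with edgeR on the IM, injIM and recNAM libraries only and 6 with 1 weight per library, which adds Tgfbr1 and Smad7; leaving out 1 library gave 3 to 5. In recNAM against injIM, where 3 were called, 1 was called without a filter, 0 with 1 pooled spread, 0 with edgeR, 1 with DESeq2, 5 with the replicate block and 5 with 1 weight per library; leaving out 1 library gave 1 to 4. In the resident against interstitial comparison over both ears (0 called), 1 was called without a filter, 1 with 1 pooled spread, 1 with edgeR, 6 with DESeq2 and 1 with 1 weight per library; leaving out 1 library gave 0 to 1. In injNAM against sNAM (0 called), 1 was called with 1 pooled spread and 2 with DESeq2, and in the interaction (0 called) 1 with DESeq2. In these 2 comparisons, in sNAM against IM, injNAM against injIM and recNAM against injNAM, leaving out 1 library gave 0 to 0. The cause of these changes was not tested. For sNAM against IM, both ears, injNAM against sNAM and the interaction, the DESeq2 counts include Tgfb3. That gene had no read in sNAM and reads in 1 injNAM library. With TMM scaling, the counts were 4 in injIM against IM and 4 in recNAM against injIM, and a pseudocount of 10 gave 4 and 2.

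Over all genes, the percentage called ran from 0 to 10.9 for sNAM against IM, from 0.0462 to 11.4 for injIM against IM, from 0 to 8.61 for injNAM against sNAM, from 0.0231 to 3.73 for injNAM against injIM, from 0 to 1.83 for recNAM against injNAM, from 0.104 to 15.7 for recNAM against injIM, from 1.2 to 12.5 over both ears and from 0 to 2.71 for the interaction. No called gene of the 10 changed direction under any setting. Of all 1867 values of the 10 under the alternatives, called and uncalled together, 65 changed sign, all without a call. Same-numbered libraries of different groups deviated together only in part: 9 of 30 such pairs correlated over 0.1, against 3 of 60 with other numbers, and 12 of 15 libraries matched best with their own number, a hint from the data. The replicate block gave 5 calls in injIM against IM, adding Tgfbr2 (limma adjusted p = 0.0257), and in recNAM against injIM it added Smad6 (limma adjusted p = 0.0136) and Tgfbr2 (0.00329). The weights per library and the fits on 9 libraries were chosen after seeing the data. Of the 6 resident libraries, 2 were shallow (5.64 and 9.09 M reads), where 1 read was worth 2.91 and 1.85 normalized counts.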

Other observations

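Itgb3, the integrin β3 chain that pairs with αv, was under the filter and is named after its values were seen. It measured 16.0, 0 and 0 in IM and 134, 146 and 421 in injIM, at most 2.91 in the resident libraries and 3.89, 108 and 9.53 in recNAM. Bambi, a pseudoreceptor that blocks type I receptors and also named after its values were seen, measured 161.3 ± 25.6 in IM, 530.8 ± 76.6 in sNAM and 383.1 ± 231 in injNAM, and Ldlrad4, which keeps Smad2 and Smad3 from the receptor as Pmepa1 does, 345.7 ± 86.2, 870.1 ± 458 and 739.9 ± 204. Neither was called over both ears (limma adjusted p = 0.321 and 0.121). All 3 Bambi libraries of sNAM, from 455 to 608, lay above those of IM, from 133 to 182, as for 9.57% of tested genes.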
